A study of Gallus gallus with 2 samples.

Results

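The genes that set the pace of the G1 phase were followed in basilar papilla (BP) explants of chicks, before and after streptomycin (SM) had killed the hair cells (HCs). The set had 10 genes, all of which were found among the 23842 genes of the deposited tables by their symbols: the D cyclins CCND1, CCND2 and CCND3, the E cyclins CCNE1 and CCNE2, the kinase CDK6, the pocket protein gene RB1, and the inhibitors CDKN1A, CDKN1B and CDKN2B. BPs came from male chicks at posthatch day 1, and explants were cultured floating in medium. The SM0 library came from 50 pooled BPs before any SM, with no time in culture stated. The post-SM6 library came from 50 pooled BPs that had been in SM for 48 h and then in SM-free medium for 6 h. In both, thermolysin was used to strip tissue from the sensory epithelium before RNA was taken. The labels give HCs and supporting cells (SCs) as the cells of SM0 and SCs as those of post-SM6. With 1 library per time point, no difference below has a replicate check, no p-value can be given, and no neighbours in an order of levels can be told apart by their spread. No explants cultured for the same time without SM were analysed here, so effects of SM and of time in culture, and differences between the pools, cannot be told apart.

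In G1, a cell either commits to copy its DNA or stays out of the cycle. D cyclins carry growth signals to CDK4 and CDK6, which phosphorylate the retinoblastoma protein, the product of RB1. Phosphorylated retinoblastoma protein releases E2F factors, which turn on the E cyclins and the enzymes of DNA synthesis, and E cyclins with CDK2 complete the step. Inhibitors of the Cip/Kip family (CDKN1A, CDKN1B and CDKN1C, which encode p21, p27 and p57) act on cyclin and CDK complexes, and those of the INK4 family, such as the p15 product of CDKN2B, bind CDK4 and CDK6 themselves. SCs of the BP are normally quiescent, and in birds some of them divide after HC loss. In the mouse cochlea, p27 holds SCs out of the cycle, and the retinoblastoma protein and p21 help keep HCs from dividing again.

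Levels are given as TPM, the unit in which read numbers are divided by transcript length and each library is brought to one sum, so that genes can be compared within a library. TPM keeps no sequencing depth, so no counting error is given for the values. The log2 change compares post-SM6 with SM0 after 0.1 TPM had been added to both, and it is therefore too small for genes near or below that level. A gene was called higher or lower when it had at least 1 TPM in either library and its TPM differed by at least 1.3-fold. The study asks for the same levels in a differentially expressed gene, but it takes the fold from normalized read counts. It also asks for a minimum of raw reads and a count test, followed by the weighted average difference method. These further steps of the study were not repeated, and the calls made here describe the libraries only.

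Of the 10 genes, 9 passed the filter on TPM, each with at least 1 TPM in both libraries, and CCNE2 did not. All 3 D cyclins and CDKN2B were higher in post-SM6, CCNE1 and CDKN1A were lower, and CDK6, CDKN1B and RB1 differed by less than 1.3-fold. The 4 higher members stand beside a background of 23.9% of the 13321 genes past the filter, and the 2 lower members beside 23.3%. The median log2 change was -0.01 over the 9 members and -0.02 over all genes past the filter. Among genes with a mean of 10 to 100 TPM, 36.7% changed by at least 1.3-fold in either direction, and 5 of the 6 members in this range did so. Of genes with a mean of 1 to 10 TPM, 60.8% changed, as did 1 of 2 members, CDKN2B but not CDK6. CDKN1B was the 1 member above 100 TPM, a range in which 39.0% of genes changed.

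**Figure D1:**
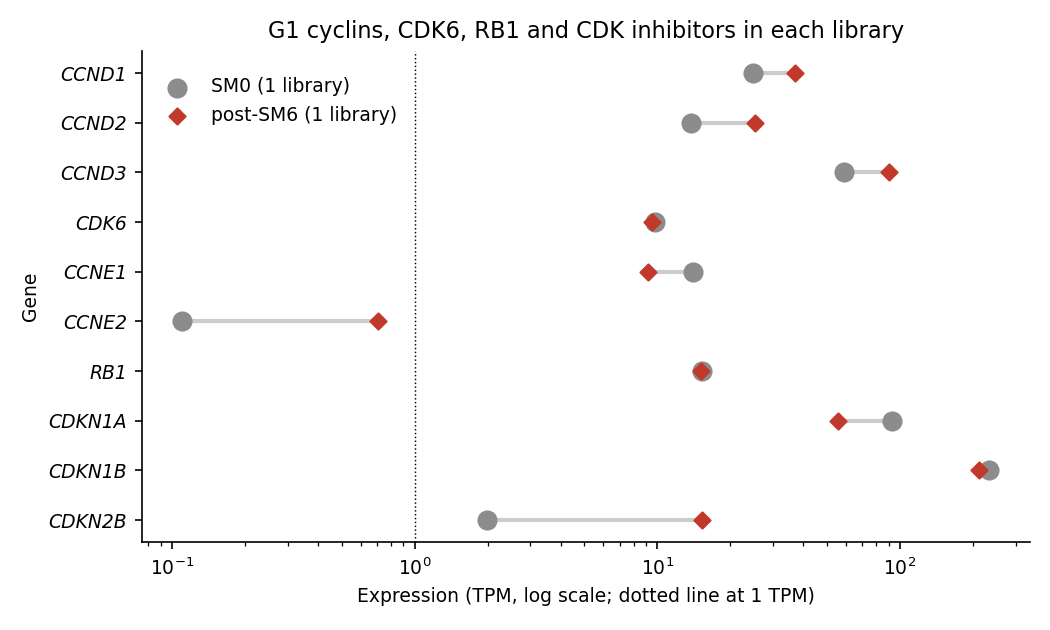
TPM of each member (log axis) in the SM0 library (grey circles) and in the post-SM6 library (red diamonds), with 1 library per point. The D cyclins and CDKN2B lie to the right in post-SM6, CCNE1 and CDKN1A to the left, and the points of CDK6 and RB1 lie on each other, while CCNE2 is left of 1 TPM in both libraries.

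Composition of the libraries differed beyond the cell cycle. The counts of called markers below stand beside 23.9% higher and 23.3% lower over all genes past the filter. Of 17 genes of the HC marker list, which holds 16 symbols because POU4F3 names 2 gene IDs, 15 were lower in post-SM6 and 1 was higher, and their summed level went from 2830 to 307 TPM, with none at 0. OCM alone gave 1966 TPM of the sum in SM0 and 88.4 TPM in post-SM6. TMIE and CDH23 passed the filter through SM0 alone and so had to be lower. The 12 SC markers summed to 5498 TPM in SM0 and 5577 TPM in post-SM6, with 7 higher, 2 lower and a median log2 change of 0.42. TECTB, a lower one, gave 3950 and 2802 TPM of these sums. All 11 fibroblast markers were higher, from 129 to 538 TPM in sum, and 10 of them had at least 1 TPM in both libraries. All 9 leukocyte markers were higher as well, from 36.3 to 116 TPM, of which 3 had at least 1 TPM in both libraries. The other markers of the fibroblast and leukocyte lists passed the filter through post-SM6 alone and so could not be lower. CD74 alone gave 30.5 and 91.4 TPM of the leukocyte sums. In both of these lists no marker was at 0. Of 7 neuron and glia markers, 6 were lower, from 285 to 85.8 TPM in sum, and none was at 0. Smaller lists were those of cartilage (186 and 264 TPM in sum, with MATN1 at 0 in SM0), endothelium (34.8 and 22.0 TPM, with no marker at 0) and erythrocytes (16.6 and 8.48 TPM, with HBBR and HBE at 0 in both libraries). PECAM1 alone gave 33.3 and 17.1 TPM of the endothelium sums. CDH5, the other endothelial marker past the filter, was higher, from 0.97 to 3.74 TPM, and passed through post-SM6 alone. In bulk RNA, fewer cells of a type and less RNA per cell cannot be told apart, and the part that these shifts had in the values of the members and of the related genes was not tested.

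The D cyclins are the sensors of growth signals in this set. CCND3 was the most abundant of them, with 58.7 TPM in SM0 and 90.6 TPM in post-SM6, a log2 change of 0.62. CCND1, known in mammalian cells as a target of mitogen and Wnt signalling, went from 24.9 to 37.0 TPM (log2 change 0.57). CCND2 was the least abundant, and with 13.8 TPM in SM0 and 25.3 TPM in post-SM6 it had the largest log2 change of the family, 0.87. The family therefore kept one order of levels in both libraries.

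Added together, the D cyclins had 97.4 TPM in SM0 and 153 TPM in post-SM6, 1.57-fold higher, with a log2 change of 0.65. The make-up of this sum differed little. CCND3 gave 60.3% of it in SM0 and 59.2% in post-SM6, CCND1 gave 25.6% and 24.2%, and CCND2 gave 14.2% and 16.5%. Among all genes past the filter, the log2 changes of CCND1, CCND3 and CCND2 ranked at the 82.6th, 84.0th and 88.6th percentile. At 2-fold, where 9.56% of all genes were higher, no D cyclin was called. The calls of CCND1 and CCND3 were also lost when TPM were scaled so that the median ratio of the 12 SC markers was 1, with log2 changes of 0.15 and 0.20, while CCND2 kept its call at 0.45. That scaling shifts the median of all genes by -0.43.

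CDK6, a kinase partner of the D cyclins, was level, with 9.82 TPM in SM0 and 9.55 TPM in post-SM6 and a log2 change of -0.04. The D cyclins summed to 9.92 times the TPM of CDK6 in SM0 and 16.0 times in post-SM6. CDK4, the other kinase partner, was not analysed here. RB1, their main substrate, was level as well, with 15.3 TPM in SM0 and 15.2 TPM in post-SM6 and a log2 change of -0.01. Relative to the SC markers, both were lower, with log2 changes of -0.46 for CDK6 and -0.43 for RB1, which is close to the shift of all genes under that scaling.

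The E cyclins act after the D cyclins, at the entry into S phase. CCNE1 went from 14.0 TPM in SM0 to 9.15 TPM in post-SM6, a log2 change of -0.61 that was above those of 14.7% of all genes past the filter. CCNE2 had 0.11 TPM in SM0 and 0.71 TPM in post-SM6. Both of its values are below 1 TPM, and the log2 change of 1.95 moved to 0.62 when the pseudocount was 1 and to 2.59 when it was 0.01. The paralogs had very unequal levels. The TPM of CCNE1 were 127 times those of CCNE2 in SM0 and 12.9 times in post-SM6. Their sum, 14.1 TPM in SM0 and 9.86 TPM in post-SM6, had a log2 change of -0.51 and followed CCNE1, which supplied 99.2% and 92.8% of it. The D cyclins summed to 6.91 times the E cyclins in SM0 and to 15.5 times in post-SM6.

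**Figure D2:**
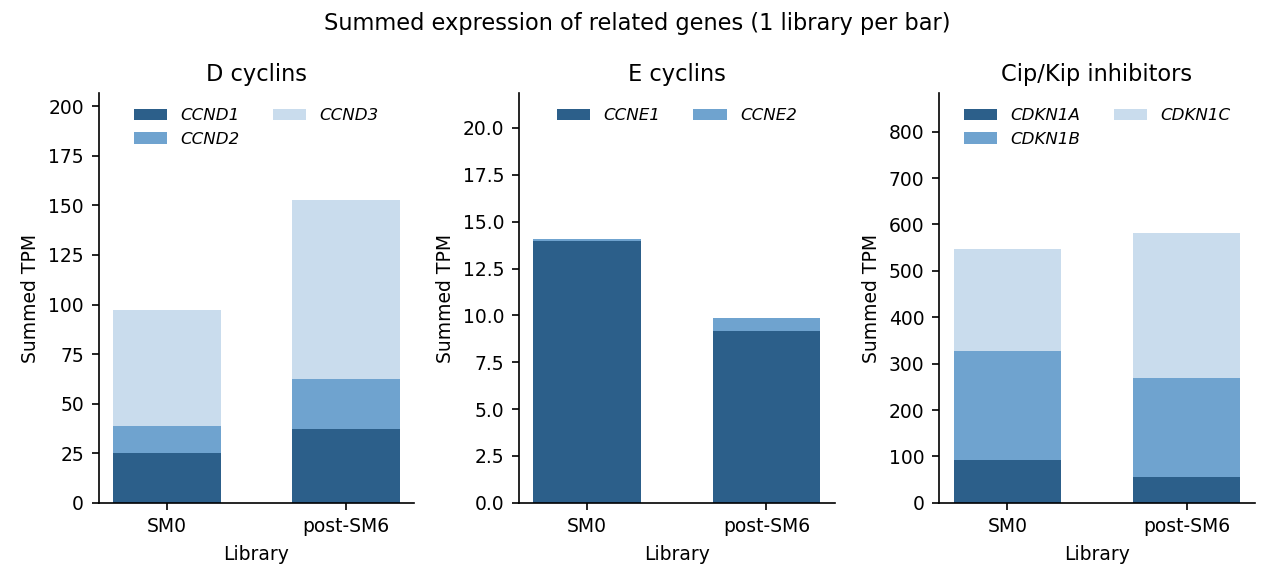
Summed TPM of the D cyclins, the E cyclins and the Cip/Kip inhibitors in each library, with 1 library per bar and each gene as a part of it, the 3 vertical axes starting at 0 with different ranges. The D cyclin bar is taller in post-SM6 (97.4 and 153 TPM) and the E cyclin bar shorter (14.1 and 9.86 TPM), while the 3 inhibitors, CDKN1C included, sum to 546 and 582 TPM.

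Among the inhibitors, CDKN1B was the most abundant member in both libraries, with 234 TPM in SM0 and 212 TPM in post-SM6. Its log2 change of -0.14 stayed within 1.3-fold, and its level exceeded that of 96.1% of the genes past the filter in SM0 and 95.5% in post-SM6. CDKN1A, which responds to stress and differentiation signals, went from 93.1 to 55.7 TPM, 1.67-fold lower, and had a log2 change of -0.74. In SM0 it stood above CCND3, and in post-SM6 below it. Its lower level stands beside that of the HC markers (2830 to 307 TPM in sum, of which OCM alone gave 1966 and 88.4 TPM). Sums of the neuron and glia (285 to 85.8 TPM), erythrocyte (16.6 to 8.48 TPM) and endothelium markers (34.8 to 22.0 TPM) were also lower, and those of the other lists higher. Whether RNA of HCs or of any other cells was part of the lower level of CDKN1A was not tested. CDKN1A was not called at 2-fold, where 7.83% of all genes were lower, and with TPM scaled to the SC markers its log2 change was -1.16. CDKN1B was called lower under that scaling, at -0.56. The same scaling left 56.1% of all genes lower and moved the median of all genes by -0.43.

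CDKN1C, a Cip/Kip gene outside the set, differed in the other direction, with 219 TPM in SM0 and 314 TPM in post-SM6, a log2 change of 0.52. With TPM scaled to the SC markers its log2 change was 0.09. CDKN1A and CDKN1B together had 327 TPM in SM0 and 268 TPM in post-SM6, a log2 change of -0.29 within 1.3-fold. When CDKN1C was added, the sum was 546 and 582 TPM, and the log2 change was 0.09. The direction of the Cip/Kip total therefore depended on CDKN1C. In the sum of 3 genes, CDKN1C supplied 40.2% in SM0 and 53.9% in post-SM6, and CDKN1A 17.0% and 9.58%.

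Ratios within a library do not depend on how the libraries are scaled to each other. CDKN1A and CDKN1B summed to 3.36 times the D cyclins in SM0 and 1.75 times in post-SM6. With CDKN1C in the numerator, the ratios were 5.61 and 3.81. CDKN1B alone stood at 2.40 and 1.39 times the D cyclins, and CDKN1A at 0.956 and 0.365 times. These 4 ratios of Cip/Kip inhibitor to D cyclin transcripts were smaller in the post-SM6 library. They are not separate results, since all divide by the D cyclin sum (97.4 and 153 TPM) and the summed numerators contain the single genes. CDKN1B itself differed by less than 1.3-fold, and CDKN1C alone was higher in post-SM6 (219 and 314 TPM). The ratio of CDKN2B, the other inhibitor of the set, to the D cyclins was larger, with 0.0204 in SM0 and 0.1004 in post-SM6. The ratios have no replicate check, and they compare transcripts, not proteins.

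CDKN2B had the largest change of the 10 genes. It went from 1.99 TPM in SM0 to 15.3 TPM in post-SM6, 7.39-fold higher, with a log2 change of 2.89 that was above those of 98.9% of all genes past the filter. It was the only member called at 2-fold, where 9.56% of all genes were higher and 7.83% lower. With a pseudocount of 1 or with TPM scaled to the SC markers its log2 change was 2.45 and 2.47. In mammalian cells CDKN2B is known as a gene that TGF-beta turns on. Its TPM were 0.203 times those of CDK6 in SM0 and 1.61 times in post-SM6, and CDKN1B had 117 times and 13.9 times the TPM of CDKN2B. The increase stands beside higher sums of the fibroblast markers (129 to 538 TPM) and the leukocyte markers (36.3 to 116 TPM, of which CD74 alone gave 30.5 and 91.4 TPM). Of these markers, 10 of 11 and 3 of 9 had at least 1 TPM in both libraries, and by the filter the others could not be lower. Whether the RNA of CDKN2B came from such cells was not tested.

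**Figure D3:**
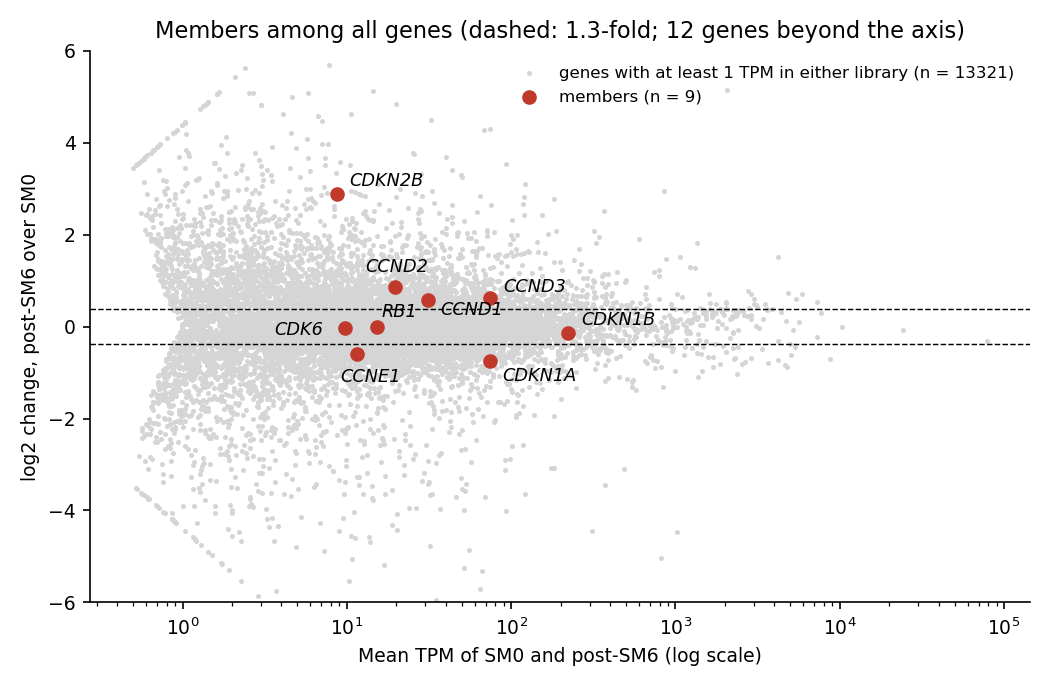
Log2 change from SM0 to post-SM6 against mean TPM (log axis) for the 13321 genes with at least 1 TPM in either library (grey) and for the 9 members among them (red), with dashed lines at 1.3-fold and 12 genes beyond the vertical axis. CDKN2B lies highest of the members at 2.89, CCND1, CCND2 and CCND3 lie above the upper line, and CCNE1 and CDKN1A below the lower line.

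Ordered by level, the members in SM0 were CDKN1B, CDKN1A, CCND3, CCND1, RB1, CCNE1, CCND2, CDK6, CDKN2B and CCNE2. At post-SM6 the order was CDKN1B, CCND3, CDKN1A, CCND1, CCND2, CDKN2B, RB1, CDK6, CCNE1 and CCNE2. By these values CCNE1 went from place 6 to place 9 and CDKN2B from place 9 to place 6, but these places rest in part on close neighbours. All members together had 466 TPM in SM0 and 471 TPM in post-SM6. CDKN2B and RB1 in post-SM6, with 15.3 and 15.2 TPM, are too close for their order to be read. The same holds for CCNE1 and CCND2 in SM0 (14.0 and 13.8 TPM) and for CDK6 and CCNE1 in post-SM6 (9.55 and 9.15 TPM).

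Reads of overlapping genes can be assigned to the wrong one where strand is not used, and no strand setting was stated for the counting. In the RefSeq table of GRCg7b, 5 members overlap no other gene, and the other 5 (CCND3, CCNE2, CDK6, CDKN1B and RB1) do. TAF8, which overlaps CCND3, had 9.39 TPM in SM0 and 9.35 TPM in post-SM6. CCNE2 overlaps 2 genes whose TPM were far above its own in both libraries, so its low values are uncertain. LPAR6, which overlaps RB1, had 5.56 and 9.47 TPM. CDK6 overlaps MIR1650 and LOC107052572, listed at 0 in both libraries, and LOC112531971, with 0.69 and 1.10 TPM. CDKN1B overlaps the protein-coding gene LOC121107608, which had no matching row, so its level could not be seen. CDKN2B lies next to CDKN2A in the same table.

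CDKN2C, an INK4 gene outside the set, and the related gene CDKN2A were scarce in SM0, and CDKN2D had no matching row. CDKN2C, which encodes p18, had 0.05 TPM in SM0 and 5.01 TPM in post-SM6. CDKN2A, known in the chick for the ARF protein rather than an INK4 protein, was listed at 0 in SM0 and had 1.44 TPM in post-SM6. Both passed the filter through post-SM6 alone and so had to differ. CDKN2B and CDKN2C summed to 2.04 TPM in SM0 and 20.3 TPM in post-SM6, and CDKN2B supplied 75.4% of the sum in post-SM6.

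Among 5 other genes of G1 kinases and their activators, 1 was higher, 1 was lower and 3 were called in neither direction. Over all genes past the filter, 23.9% were higher and 23.3% lower. CDK2, the partner of the E cyclins, was the higher one, with 16.0 TPM in SM0 and 42.8 TPM in post-SM6 and a log2 change of 1.41. Its TPM were 1.14 times those of CCNE1 in SM0 and 4.67 times in post-SM6. The lower one was MNAT1, a subunit of the kinase that activates CDKs, from 44.7 to 29.5 TPM.

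Of 17 genes of pocket proteins, E2F factors and the DREAM complex past the filter, 5 were higher and 1 was lower. This stands beside 23.9% and 23.3% of all genes, and the median log2 change of the list was 0.05. E2F1, an activator of S phase genes, went from 3.51 to 11.0 TPM (log2 change 1.62). MYBL1, a relative of the DREAM partner MYBL2, went from 1.08 to 3.68 TPM, and E2F8, a repressor of the family, from 1.00 to 2.54 TPM. RBL1, which encodes the RB1 relative p107, was the lower gene, from 4.82 to 3.12 TPM. The other 11 were called in neither direction, as was RB1.

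Among 11 genes of the ubiquitin ligases that break down G1 regulators, 2 were higher and none was lower. This stands beside 23.9% and 23.3% of all genes, and the median log2 change of the list was 0.06. CKS1B, the cofactor through which SKP2 recognises p27, went from 26.6 to 115 TPM (log2 change 2.11). DTL, a receptor of the ligase that degrades p21 during DNA synthesis, went from 1.45 to 2.72 TPM. SKP2 itself, named after its value was seen as the partner of CKS1B, had 22.8 TPM in SM0 and 23.5 TPM in post-SM6.

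Of 16 S phase genes under E2F control, 9 were higher and 1 was lower, beside 23.9% and 23.3% of all genes, with a median log2 change of 0.70. The 9 include ORC1, a subunit of the origin recognition complex, which with 0.53 and 1.16 TPM passed the filter through post-SM6 alone, while the other 15 had at least 1 TPM in both libraries. RRM2, a subunit of ribonucleotide reductase, went from 4.63 to 37.6 TPM, TYMS, the thymidylate synthase gene, from 4.23 to 16.8 TPM, and MCM6, a subunit of the replicative helicase, from 7.32 to 25.0 TPM. GMNN, the lower gene, encodes the replication inhibitor geminin and went from 18.4 to 14.1 TPM. Its log2 change of -0.39 was within 1.3-fold when the pseudocount was 1 (-0.37) and when the median ratio of genes with a mean of at least 10 TPM was set to 1 (-0.36).

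In the list of the MYC network and FOXO factors, which lie upstream of D cyclins and CDKN1B, 2 of 11 genes were higher and 3 were lower. Over all genes, 23.9% were higher and 23.3% lower, and the median log2 change of the list was -0.06. MYC went from 175 to 124 TPM (log2 change -0.50). MYCL went from 14.8 to 46.2 TPM, and MYCN from 1.63 to 3.31 TPM. FOXO1, which in mammalian cells turns on CDKN1B, went from 7.08 to 3.69 TPM, and MXI1, a MYC antagonist, from 178 to 122 TPM.

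Cyclins and CDKs outside G1 had a median log2 change of 0.10 over 24 genes. Of these, 8 were higher and 3 lower, beside 23.9% and 23.3% of all genes. The 3 genes with the largest increases act in mitosis. CDK1, the mitotic kinase, went from 3.46 to 47.7 TPM, CCNB2, its B-type cyclin partner, from 6.44 to 31.2 TPM, and CCNB3, a further B-type cyclin, from 0.52 to 13.6 TPM. CCNB3 passed the filter through post-SM6 alone and so had to differ, and the other 23 genes had at least 1 TPM in both libraries. Lower genes were CDK17 (34.4 to 19.5 TPM), CCNL2, a cyclin tied to RNA splicing (145 to 84.4 TPM), and CCNT2, a cyclin of transcription elongation (15.2 to 11.5 TPM). The log2 change of CCNT2 was -0.39, and its call was lost in the same settings, at -0.37 and -0.36.

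**Figure D4:**
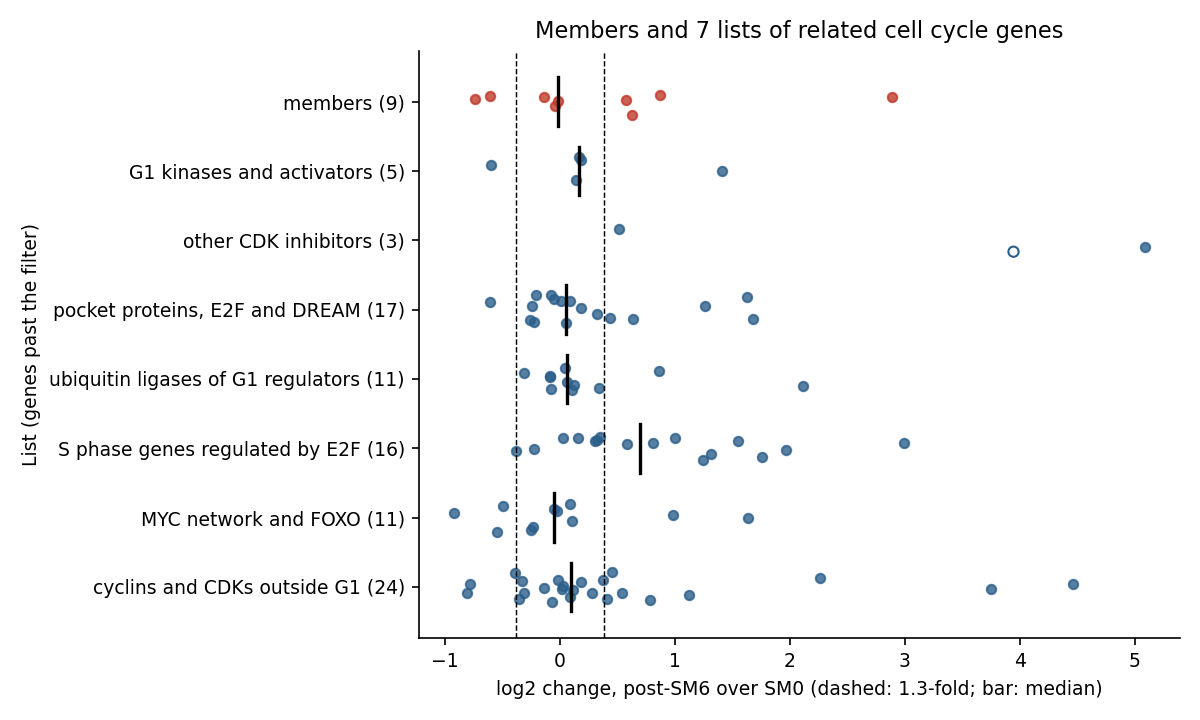
Log2 change from SM0 to post-SM6 of the members (red) and of the genes in 7 related lists (blue) past the filter on TPM, with the number of genes in brackets, black bars at the medians, dashed lines at 1.3-fold and an open circle for CDKN2A, listed at 0 in SM0. The S phase genes have a median of 0.70, while those of 5 other lists, from -0.06 to 0.16, and of the members, at -0.01, lie near 0, and no median is drawn for the list with CDKN2A.

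The calls of 4 members did not change among the scalings and pseudocounts. CCND2 and CDKN2B were higher, and CCNE1 and CDKN1A lower, with pseudocounts of 1 and 0.01, with the median ratio of genes with a mean of at least 10 TPM set to 1, with TPM rescaled without the 10 most abundant genes, and with TPM scaled to the SC markers. The log2 change of CCNE1 ran from -1.02 to -0.56 over these, and that of CDKN1A from -1.16 to -0.71. Scaling to the SC markers, whose median ratio of post-SM6 to SM0 was 1.34, decided the calls of the other 5 genes past the filter. Single SC markers had log2 changes from -0.91 (SOX2) to 1.66 (LFNG). Their sum differed little (5498 and 5577 TPM), but TECTB, a lower one, alone gave 3950 and 2802 TPM of it. Of the 12 SC markers, 7 were higher and 2 lower, beside 23.9% and 23.3% of all genes. The paper reports an upward trend of JAG1 and LFNG, which are in the SC list. This scaling is therefore not a measure per SC. It left 11.8% of all genes higher and 56.1% lower, in place of 23.9% and 23.3%. It gave 2 higher and 5 lower members, since CCND1 and CCND3 lost their calls and CDK6, CDKN1B and RB1 were called lower.

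**Figure D5:**
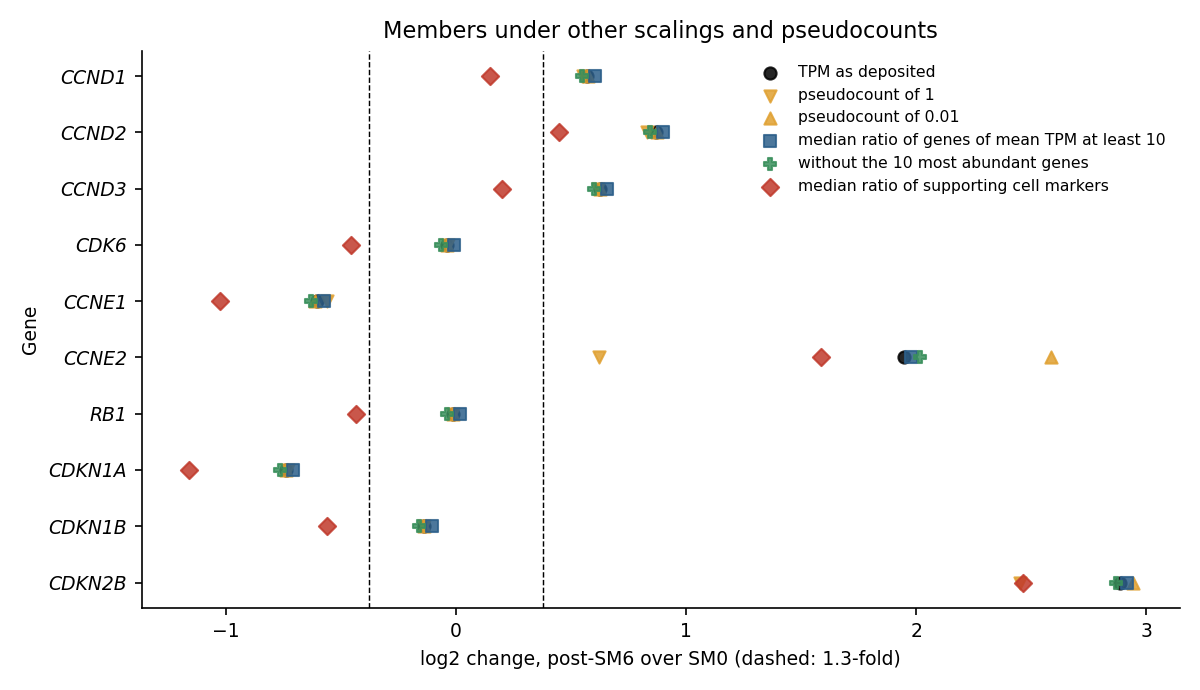
Log2 change of each member from SM0 to post-SM6 with TPM as deposited (black circles), with other pseudocounts (orange triangles) and with 3 other scalings (blue squares, green crosses, red diamonds), with dashed lines at 1.3-fold. The red diamonds, for scaling to the SC markers, lie to the left of the points for deposited TPM and for the other scalings, so that CCND1 and CCND3 fall between the lines and CDK6, CDKN1B and RB1 left of them, while CCNE2 moves most with the pseudocount (0.62 to 2.59).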

How the data were processed

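RNA was sequenced from 2 libraries used here, SM0 and post-SM6, each from 50 pooled BPs (paired-end NovaSeq reads). Per the methods and the submitters' processing notes, the authors removed rRNA reads with Bowtie2 2.1.0, aligned the rest to GRCg6a with STAR 2.7.1a and deposited TPM estimated with RSEM 1.3.0. Annotation release and strand setting are not given in the sources used here. TPM carry transcript length correction and a fixed sum per library, and no depth.

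Members were matched by file symbol. Lists used file symbols, or else the current symbol in the RefSeq table of GRCg7b, in which all 10 members matched by gene ID. That build differs from the files' build, so no coordinates are printed. Listed genes without a matching row, and so not analysed, were CDK4, CDKN2D, LIN37, MCM7, CDK16, EMCN and HBAA. The pseudocount was 0.1, the minimum 1 TPM in either library and the fold 1.3. Members and lists were chosen with earlier results of these data known. From each of 7 related lists, up to 3 higher and 3 lower genes with the largest changes were named, plus CDK2 and CDKN1C. A further related list is not reported here. With 1 library per time point no test was possible. Alternatives were 8 set beforehand and 1 added after seeing the data, the sum with CDKN1C. The code of the fold calls was run on simulated libraries with little noise. Its planted changes were far above 1.3-fold, in genes with a mean of at least 10 TPM. That run cannot show the error of calls near 1.3-fold, of calls at lower TPM, or from differences between pools. Python 3.11.15, numpy 2.4.6, pandas 2.3.3 and matplotlib 3.10.9 were used.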

Additional observations from a re-analysis of the deposited data

How the results depend on the processing

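At 2-fold, 1 member was higher and 0 were lower, beside 9.56% and 7.83% of all genes. Neither the D cyclin total (0.65) nor the E cyclin total (-0.51) was called at 2-fold. With TPM scaled to the SC markers, 2 members were higher and 5 lower, beside 11.8% and 56.1% of all genes. Under this scaling the D cyclin total was within 1.3-fold (0.23). The total of CDKN1A and CDKN1B (-0.71) and the median of the members (-0.43) were beyond it, and the median of all genes moved by -0.43. The median of the members was 0.018 when the median ratio of genes with a mean of at least 10 TPM was set to 1 and 0.28 with no minimum of TPM, which adds CCNE2. With no minimum CCNE2 was also called, so that 5 members were higher and 2 lower, beside 19.6% and 21.5% of all genes. With CDKN1C added, an alternative chosen after seeing the data, the Cip/Kip total was 0.0914 in place of -0.29. Pseudocounts of 1 and 0.01, a minimum of 5 TPM and rescaling without the 10 most abundant genes changed no call of a member or a total. No result named above reversed a call. TPM do not show how far depth limits the low values, such as those of CCNE2. No paired analysis was possible because each time point has 1 library.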
